A study of Vitis vinifera with 23 samples.

Results

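The comparison is between control grape berries at véraison and control berries at the preceding green stage, EL33. It used 6 of the 23 samples, 3 at each stage, which were chosen by their labels and not by any measured value. All berries were Vitis vinifera cv. Sauvignon blanc, a white wine cultivar, from a single vineyard in its natural field setting. Control bunches hung in an undisturbed, shaded canopy. In the exposed treatment, which is used below for side-by-side values, leaves and lateral shoots had been taken from the bunch zone early in berry development, at EL29. Each sample pooled berries from a panel of neighbouring vines, and the panels were the replicates. Berries were frozen in the vineyard and their seeds removed, so skin and pulp were measured together. EL numbers are steps of the modified Eichhorn-Lorenz scale of vine growth: EL31 berries are small and green, EL33 berries are hard and green, and EL38 berries are ripe. The labels call the véraison samples EL34, while the study's text calls the same stage EL35, and the stage is named véraison here.

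Véraison is the point at which a grape berry begins to ripen. A hard, green, acidic fruit that divides little and still photosynthesises turns into a soft fruit that imports sucrose, stores glucose and fructose in its vacuoles and respires its malate. Grape ripening is non-climacteric: it is classically tied to abscisic acid (ABA) and sugars, with a smaller role for ethylene, and auxin is known to delay it.

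Levels are given in FPKM, a unit of fragments mapped to a transcript that corrects for gene length and library size. Of 29970 genes, 18040 had a mean of at least 1 FPKM at one or both of the stages and were tested. The log2 differences are véraison minus EL33 of FPKM + 0.1, with their standard error (SE), and a gene was called at an adjusted p of at most 0.05. At véraison 51.0% of the tested genes were called: 4543 genes rose, which is 25.2%, and 4662 fell, which is 25.8%. By at least 1 log2 unit, 1915 rose (10.6%) and 2230 fell (12.4%). The median difference over all tested genes was -0.03. In 28.6% of them all 3 véraison samples lay above all 3 EL33 samples, and in 29.8% they lay below. Because whole berries were measured, fewer cells of a type and less RNA per cell cannot be told apart in any of these values.

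The libraries were not equal in depth. Relative to the median of all libraries, the EL33 control libraries stood at 1.09 to 2.65 and the véraison ones at 0.778 to 0.898, so depth and stage cannot be told apart for genes near 0. In 76 tested genes all 3 EL33 samples were above 0 and all 3 véraison samples were listed at 0, against 15 genes the other way round. EL33 replicate 1 also carried seed transcripts: the 12 globulin and oleosin genes, which store protein and oil in seeds, summed to 938 FPKM there, against 21.7 and 14.1 FPKM in the other EL33 samples and 466 to 490.0 FPKM at véraison. Of these 12 genes, 11, 5 and 3 reached 1 FPKM in the EL33 samples and 5, 4 and 4 did at véraison. Without EL33 replicate 1, 4297 genes rose and 4142 fell.

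The lists of genes described below were drawn from the study's own annotation. The study had picked many of the members as markers of green or of ripening berries with these same control samples, so the direction of those members is not independent evidence. Of 1914 tested genes picked as green-stage markers 97.9% fell here, and of 1965 picked as ripening markers 96.7% rose. Among the 14161 tested genes not picked in this way 18.7% rose and 19.7% fell. The plot of list members separates the members picked on the stage from the others. Many of those others had their names from the study's tables of genes that responded to light exposure. The control level had a part in that choice, so their direction is not independent evidence either.

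**Figure D1:**
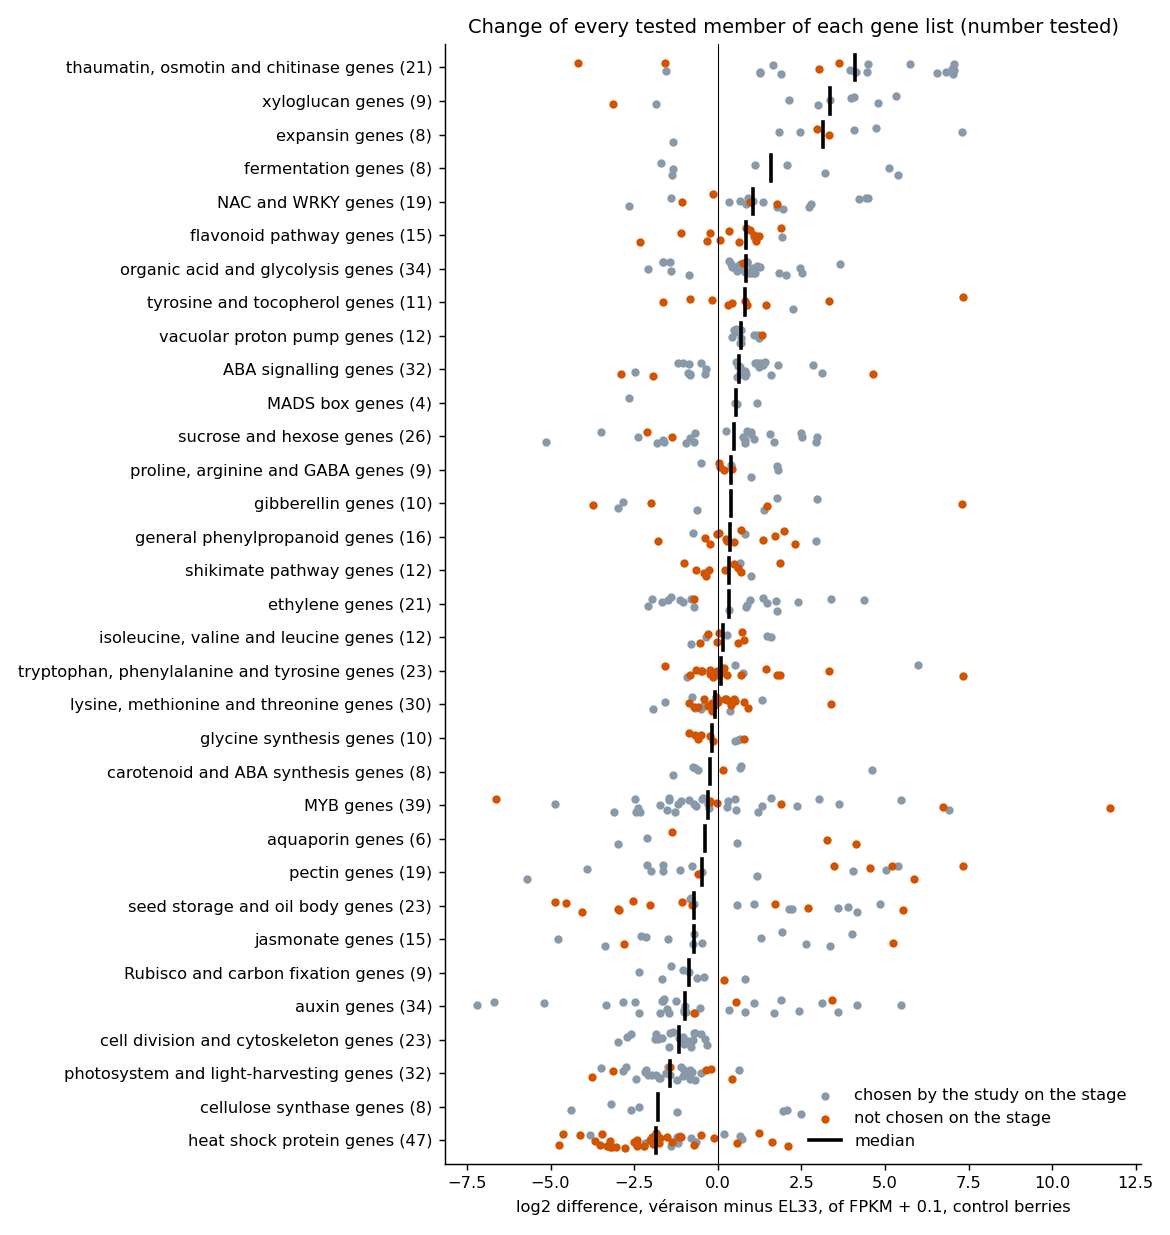
Each point is a tested gene of a list, placed by its log2 difference between véraison and EL33 in control berries, with the number of genes tested in brackets and a bar at the median of the list. Grey points are genes that the study had chosen on the stage and orange points the others. Lists with fewer than 3 tested genes are not drawn. The medians drawn run from -1.85 for heat shock proteins to 4.10 for thaumatins, osmotins and chitinases.

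The defence-type proteins of the ripe berry had the highest median log2 difference of the lists with more than 2 tested members. These are small thaumatin-like, osmotin-like and chitinase proteins that grapes store during ripening. Of 21 tested members 17 rose and 2 fell, with a median of 4.10, and 16 of the 25 listed members had been picked as ripening markers. Their summed level was 574 to 1381 FPKM at EL33 and 49611 to 57333 FPKM at véraison. The count that fell was 1 instead of 2 without EL33 replicate 1, without véraison replicate 1 or without véraison replicate 2. Thaumatin VVTL1 (Vv02s0025g04330) stood at 133, 148.2 and 146 FPKM at EL33 and at 20276, 16491 and 20513 FPKM at véraison. The 2 stages did not come near each other, and the gene rose by 7.06 ± 0.93 log2 units (adjusted p = 6.08e-06). A class IV chitinase, an enzyme that cuts chitin (Vv05s0094g00340), stood at 152.7, 144 and 138 FPKM and then at 17944, 18069.9 and 19494 FPKM, a rise of 6.99 ± 1.15. Its neighbour Vv05s0094g00330 was listed at 0 in 2 EL33 samples and at 0.0376 FPKM in the other, and reached 11.5, 8.97 and 10.7 FPKM. The genes of this cluster are alike in sequence, so fragments may be split among them and their single levels are uncertain.

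Both ripening-induced grip genes rose. Grip22 (Vv06s0004g02560), a kiwellin-type cell wall protein, stood at 231, 489 and 291 FPKM at EL33 and at 27476, 26094 and 27643 FPKM at véraison, a difference of 6.40 ± 0.62. Grip61 (Vv01s0011g05140), a major latex-like protein, moved at a far lower level, from 0.920, 0.667 and 1.25 FPKM to 3.61, 5.47 and 4.83 FPKM. The samples of the 2 stages did not overlap for these genes. Grip22 was the second most abundant named gene at véraison. The most abundant was a gamma-thionin precursor (Vv01s0010g02030), a small cysteine-rich defence peptide, with a mean of 44172 FPKM against 5680.3 FPKM at EL33.

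**Figure D2:**
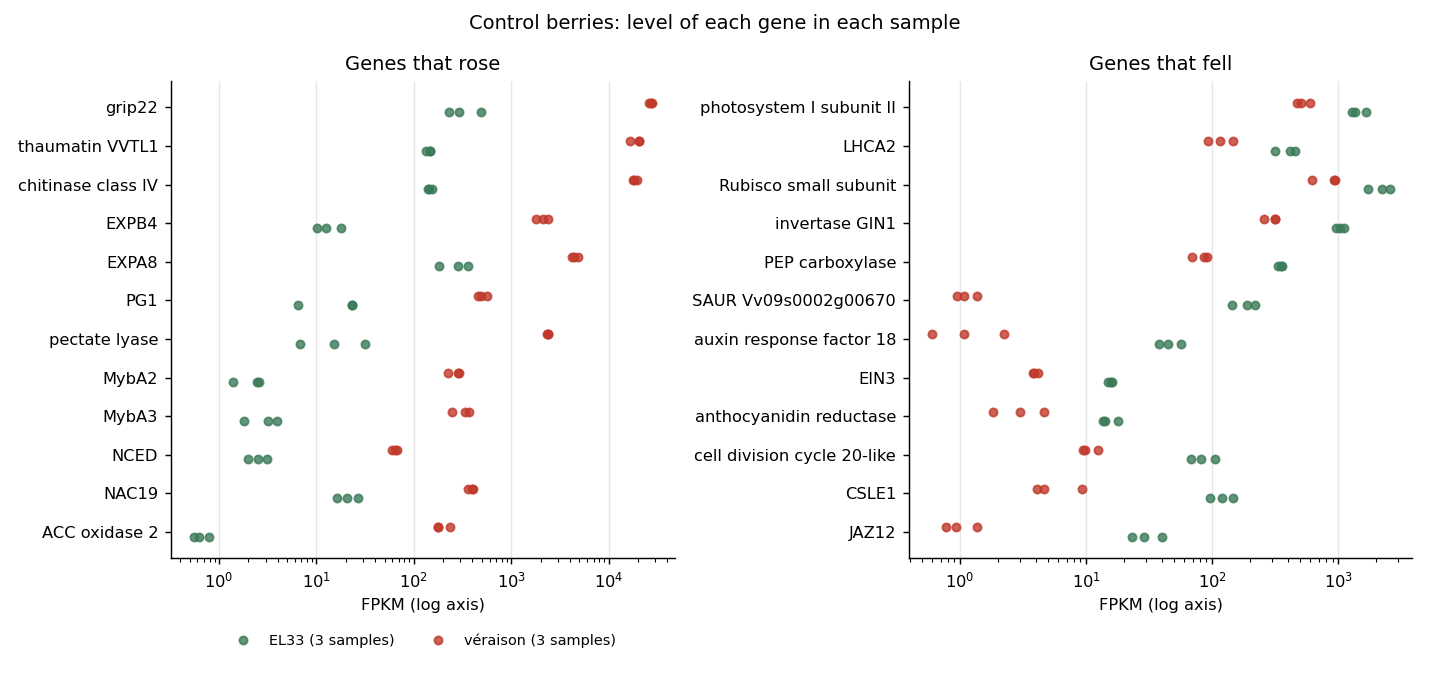
FPKM on a log axis of 12 genes that rose and 12 that fell, with each of the 3 EL33 samples in green and each of the 3 véraison samples in red. In all 24 genes the 3 samples of one stage lie apart from the 3 of the other.

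Most of the expansin and xyloglucan genes, which loosen the cell wall, rose, while genes of the pectin list moved in both directions. Expansins loosen the bonds between cellulose and xyloglucan, xyloglucan endotransglucosylases cut and rejoin xyloglucan, and polygalacturonase and pectate lyase cut the pectin that glues cells together. Of 8 tested expansins 7 rose and 1 fell, with a median of 3.15, and both tested members not picked on the stage rose. Of 9 tested xyloglucan genes 7 rose and 1 fell, with a median of 3.36, and without EL33 replicate 3 the count that fell was 2. Of the 10 listed xyloglucan genes 8 had been picked on the stage, and the 1 tested member not picked was not called, with a difference of -3.12. Of 19 tested pectin genes 9 rose and 10 fell, with a median of -0.49. Here the list splits by how its members were found: of the 6 tested members that the study had not picked on the stage, 5 rose and 1 fell. The unpicked expansin and pectin members had their names from the study's tables of genes that responded to light exposure. The control level had a part in that choice, so these counts are not independent evidence.

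Among the expansins, beta-expansin EXPB4 (Vv15s0021g02700) moved most. It stood at 10.1, 12.6 and 17.8 FPKM at EL33 and at 1799, 2113 and 2394 FPKM at véraison, a rise of 7.30 ± 0.87. Expansin EXPA8 (Vv13s0067g02930) went from 183, 285 and 361.8 FPKM to 4425, 4213 and 4798 FPKM and was the most abundant of those named here. EXPA15 (Vv01s0026g02620) went from 52.5, 68.9 and 64.2 FPKM to 1553, 1608 and 1740.0 FPKM. Alpha-expansin 1 (Vv18s0001g01130) was already at 1058 to 1275 FPKM in green berries and rose the least of the 4, by 1.82 ± 0.15. In green berries alpha-expansin 1 was the most abundant of the 4 genes, and at véraison EXPA8 was.

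Xyloglucan endotransglucosylase/hydrolase XTH32 (Vv06s0061g00550) was the dominant member of the xyloglucan list at véraison. It stood at 128, 279 and 287 FPKM and then at 6104, 6179 and 5937 FPKM, a rise of 4.80 ± 0.67. XTH3 (Vv11s0052g01190) stayed low, at 0.198 to 0.364 FPKM before and 2.21 to 3.84 FPKM after. Polygalacturonase PG1 (Vv08s0007g08330) went from 6.51, 23.1 and 23.1 FPKM to 488, 566 and 458 FPKM, a rise of 5.04 ± 0.68. A pectate lyase (Vv17s0000g09810) went from 6.79, 31.2 and 15.3 FPKM to 2405, 2339 and 2395 FPKM, a rise of 7.32 ± 0.85. EL33 replicate 1 was the lowest of the EL33 samples for XTH32, PG1, this pectate lyase and EXPA8. In the opposite direction, a pectinesterase-family gene (Vv05s0062g01160), which removes methyl groups from pectin, fell from 7.77 to 8.89 FPKM to 0.0430 to 0.104 FPKM. An invertase/pectin methylesterase inhibitor gene (Vv16s0022g00960) rose from 233, 282 and 276 FPKM to 10251, 10502 and 12119.5 FPKM.

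Wall synthesis moved the other way in part. Of 8 tested cellulose synthase and cellulose synthase-like genes 3 rose and 5 fell, with a median of -1.79, and all of those tested had been picked on the stage. The cellulose synthase-like gene CSLE1 (Vv00s0975g00020) fell from 145, 95.8 and 119 FPKM to 9.26, 4.62 and 4.06 FPKM. CSLD2 (Vv02s0012g02190) rose from 2.19 to 2.81 FPKM to 12.9 to 15.7 FPKM.

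In sugar metabolism, the vacuolar invertases fell while sucrose synthesis and a hexose carrier rose. Invertases split sucrose into glucose and fructose, sucrose-phosphate synthase makes sucrose, and hexose transporters move glucose and fructose across membranes. Of 26 tested sucrose and hexose genes 13 rose and 10 fell (median 0.49), and 25 of the 27 listed had been picked on the stage. Vacuolar invertase GIN1 (Vv16s0022g00670) fell from 962, 1023 and 1105 FPKM to 313, 256 and 314 FPKM, a difference of -1.81 ± 0.25. GIN2 (Vv02s0154g00090) fell from 90.7, 104 and 105 FPKM to 55.0, 62.3 and 65.0 FPKM. Hexose transporter HT2 (Vv18s0001g05570) rose from 13.5, 15.7 and 17.2 FPKM to 49.3, 44.6 and 56.8 FPKM, by 1.69 ± 0.13. Of the 2 sucrose-phosphate synthases named, Vv11s0118g00200 had the higher level and went from 67.8 to 90.3 FPKM to 589 to 723 FPKM, while Vv05s0029g01140 went from 9.77 to 15.1 FPKM to 33.7 to 38.7 FPKM. The ERD6-like sugar transporters divided: ERD6-like 7 (Vv07s0104g00830) fell from 168 to 221 FPKM to 15.2 to 19.8 FPKM, and ERD6-like 16 (Vv05s0020g02170) rose from 0.0525 to 0.224 FPKM to 1.41 to 1.83 FPKM.

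Organic acid and glycolysis genes rose as a group, with 27 of 34 tested rising and 6 falling (median 0.84). All but 2 of the 35 listed members had been picked on the stage. Phosphoenolpyruvate carboxylase (Vv12s0028g02180), which feeds carbon into malate, fell from 355, 351 and 335 FPKM to 90.7, 69.5 and 85.8 FPKM, a difference of -2.09 ± 0.16. Phosphoenolpyruvate carboxykinase (Vv00s1995g00010), which takes carbon from oxaloacetate back toward sugar, rose from 1013, 1080.4 and 1057 FPKM to 1559, 1542 and 1623 FPKM. NADP-dependent malic enzyme (Vv11s0016g03210), which breaks malate down, rose from 514, 549 and 568 FPKM to 834, 839 and 824 FPKM. These rises, 0.59 ± 0.09 and 0.62 ± 0.11, were smaller than the fall of the carboxylase, and after quantile normalization they were no longer called (adjusted p = 0.341 and 0.170). A phosphopyruvate hydratase, the enolase of glycolysis (Vv16s0022g01770), rose most in the list, from 231, 251 and 274 FPKM to 3016, 3354 and 3224 FPKM. A 6-phosphofructokinase (Vv04s0008g00520) rose from 43.5 to 54.9 FPKM to 283 to 290.1 FPKM.

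Of the 8 fermentation genes, all picked on the stage, 5 rose and 2 fell. Alcohol dehydrogenases reduce acetaldehyde to ethanol. The gene annotated as alcohol dehydrogenase 6 (Vv04s0044g01110) carried nearly all of the alcohol dehydrogenase level and went from 305, 347 and 397 FPKM to 3063, 2995 and 3708 FPKM. Alcohol dehydrogenase 2 (ADH2, Vv04s0044g01120) went from 0.458, 0.510 and 0.619 FPKM to 26.0, 18.1 and 38.01 FPKM, a larger rise, 5.39 ± 0.43, at a much lower level. It lies beside a second gene of the same name (Vv04s0044g01130), so the split of fragments between them is uncertain. Pyruvate decarboxylase isozyme 2 (Vv08s0217g00100), which makes acetaldehyde, rose from 203 to 221 FPKM to 408 to 502 FPKM. A short-chain type alcohol dehydrogenase outside the list (Vv08s0040g01200) had one of the largest rises of all named genes, from 0.490, 0.898 and 0.512 FPKM to 201, 226 and 232 FPKM.

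Genes of the proton pumps that acidify the vacuole and power sugar and acid transport mostly rose. Of 12 tested V-type ATPase and related genes 11 rose and none fell, with a median of 0.70, and 11 of the 12 had been picked as ripening markers. The 1 member not picked was not called, with a difference of 1.32. The changes were modest: a 16 kDa proteolipid subunit (Vv03s0038g00790) went from 176, 176 and 182 FPKM to 384, 411 and 457 FPKM, and subunit B (Vv03s0038g02760) from 155 to 160.0 FPKM to 243 to 269 FPKM.

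Of 6 tested aquaporins, which are water channels, 3 rose and 3 fell, and 3 of the 6 had been picked on the stage. Aquaporin TIP1;3 (Vv13s0019g00330), a channel of the vacuolar membrane, went from 76.8, 74.0 and 122 FPKM to 1586, 1544 and 1503 FPKM, a rise of 4.12 ± 0.32. TIP4;1 (Vv04s0008g03550) rose from 0.477 to 1.22 FPKM to 6.72 to 10.2 FPKM, below its control mean of 23.4 FPKM at EL31. Aquaporin TMP-C (Vv13s0067g00220) fell from 36.4 to 47.4 FPKM to 7.04 to 13.7 FPKM, and NIP6;1 (Vv09s0070g00080) fell from 1.51 to 1.96 FPKM to 0.0899 to 0.171 FPKM. The study had picked neither of the TIP genes on the stage, but their names came from its tables of genes that responded to light exposure. The remaining member not picked on the stage fell.

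Genes of ABA synthesis and signalling moved in both directions. 9-cis-epoxycarotenoid dioxygenase (NCED, Vv02s0087g00930), which cuts carotenoids toward ABA, went from 1.98, 2.48 and 3.13 FPKM to 66.8, 64.02 and 60.2 FPKM, a rise of 4.62 ± 0.39 (adjusted p = 4.86e-08). Of the carotenoid genes upstream, some fell: phytoene synthase (Vv04s0079g00680) went from 45.2 to 53.3 FPKM to 17.1 to 23.9 FPKM, and zeaxanthin epoxidase (Vv00s0533g00020) from 29.2 to 35.6 FPKM to 17.96 to 21.8 FPKM. Over the 8 carotenoid and ABA synthesis genes, 7 of them picked on the stage, 3 rose and 4 fell.

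Of 32 tested ABA signalling genes 19 rose and 11 fell, with a median of 0.65. The study had picked 29 of the 33 listed members on the stage, and of the 3 tested others 1 rose and 1 fell, with a median of -1.93. The protein phosphatase 2C annotated AHG3/PP2CA (Vv13s0019g02200), a negative regulator that ABA itself induces in Arabidopsis, rose from 37.1, 48.4 and 55.4 FPKM to 366, 419.7 and 438 FPKM. A further protein phosphatase 2C (Vv16s0050g02680), not picked on the stage, rose from 0.678, 3.38 and 2.45 FPKM to 49.6, 45.4 and 46.8 FPKM. An ABA glucosidase (Vv17s0000g02680), which frees ABA from its storage form, fell from 5.03 to 6.08 FPKM to 0.593 to 0.756 FPKM. The abscisic stress ripening gene ASR2 (Vv18s0072g00380) was the most abundant named gene of the green berry, at 11058, 9536 and 8079 FPKM, and stood at 29857, 22282 and 24784 FPKM at véraison. Its rise of 1.42 ± 0.31 was lost after quantile normalization (adjusted p = 0.492).

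Of 34 tested auxin genes 12 rose and 21 fell, with a median of -0.99. The study had picked 31 of the 37 listed members on the stage, 21 of them as green-stage markers, and of the 3 tested others 2 rose and none fell, with a median of 0.55. SAUR genes are early auxin-response genes, and IAA proteins and auxin response factors carry the auxin signal to its target genes. The SAUR gene Vv09s0002g00670 fell from 189, 143 and 218 FPKM to 1.36, 1.08 and 0.952 FPKM, a difference of -7.21 ± 1.15. SAUR29 (Vv16s0098g01150) went the other way, from 2.77, 3.92 and 5.68 FPKM to 137, 202 and 212 FPKM. Auxin response factor 18 (Vv15s0046g00290) fell from 56.3, 44.5 and 37.6 FPKM to 2.25, 0.596 and 1.07 FPKM. IAA9 (Vv18s0001g08090) fell less, by 1.01 log2 units, from 307 to 340.5 FPKM to 152.2 to 164.02 FPKM.

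Ethylene genes moved both ways, with 11 of 21 rising and 9 falling (median 0.33), and 22 of the 27 listed had been picked on the stage. The ethylene receptor ETR2 (Vv05s0049g00090) stood at 24.5, 24.0 and 25.4 FPKM and then at 33.6, 28.0 and 31.9 FPKM. That rise, 0.33 ± 0.10, was small, and without véraison replicate 1 it was not called (adjusted p = 0.0545). EIN3 (Vv06s0009g01380), a transcription factor that carries the ethylene signal, fell from 15.7, 16.1 and 15.0 FPKM to 4.16, 3.87 and 3.82 FPKM. The ethylene response factor ERF025 (Vv16s0100g00400) rose from 3.04, 4.68 and 4.15 FPKM to 82.6, 81.1 and 85.9 FPKM. Outside the list, an ACC oxidase annotated as 1-aminocyclopropane-1-carboxylate oxidase 2 (Vv11s0016g02380), the last enzyme of ethylene synthesis, rose from 0.551, 0.789 and 0.622 FPKM to 178, 179 and 236 FPKM, by 8.04 ± 1.01.

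Of 10 gibberellin genes, 6 of them picked on the stage, 5 rose and 5 fell. Gibberellin 20 oxidase 2 (Vv03s0063g01290), which makes precursors of active gibberellins, went from 2.70, 4.07 and 2.68 FPKM to 449, 453 and 635 FPKM, a rise of 7.31 ± 1.37. The gibberellin 2-beta-dioxygenases Vv19s0177g00030 and Vv06s0004g06790, of the class that inactivates gibberellins, fell from 1.35 to 2.63 FPKM to at most 0.0863 FPKM and from 1.23 to 2.24 FPKM to at most 0.168 FPKM. Of 15 tested jasmonate genes 5 rose and 9 fell, and 14 of the 16 listed had been picked on the stage. Repressors of jasmonate signalling divided: ZIM-domain protein 1 (Vv11s0016g00710) rose from 4.72 to 5.80 FPKM to 80.5 to 90.2 FPKM, and ZIM-domain protein 12 (JAZ12, Vv12s0035g00900) fell from 23.3 to 40.3 FPKM to 0.771 to 1.35 FPKM.

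Regulators of transcription included the MYBA genes, which turn on anthocyanin synthesis in coloured grapes. In this white cultivar the 4 genes annotated as MybA rose from near 0. MybA2 (Vv02s0033g00390) stood at 1.40, 2.57 and 2.47 FPKM at EL33 and at 223, 288 and 284 FPKM at véraison, and MybA3 (Vv02s0033g00450) at 1.81, 3.93 and 3.18 FPKM and then at 248, 366 and 339 FPKM. MybA1 (Vv02s0033g00410) was lower, at 0.632, 0.375 and 1.45 FPKM and then at 26.1, 45.2 and 39.9 FPKM. A further gene annotated VVMYBA1 (Vv02s0033g00380) was listed at 0 in the 3 EL33 samples and at 220.3, 613 and 279.7 FPKM at véraison. The log2 rises of MybA1, MybA2 and MybA3 were 5.48 ± 1.10, 6.92 ± 1.44 and 6.74 ± 1.09. These genes lie in a cluster of similar copies, so the division of fragments among them is uncertain.

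Over all 39 tested MYB genes 15 rose and 20 fell, with a median of -0.30, and 34 of the 42 listed had been picked on the stage. The calls differed among regulators of the tannin and flavonol branches. MybPA1 (Vv15s0046g00170), which drives tannin genes, stood at 13.3, 18.8 and 18.9 FPKM and then at 12.8, 12.1 and 18.9 FPKM (difference -0.23 ± 0.33, adjusted p = 0.576). MybF1 (Vv07s0005g01210), a flavonol regulator, stood at 12.9, 19.2 and 17.2 FPKM and then at 12.8, 14.9 and 14.2 FPKM (difference -0.22 ± 0.24, adjusted p = 0.465). The stages overlapped for both genes. MybPA2 (Vv11s0016g01320), a further tannin regulator, rose from 1.46 to 2.07 FPKM to 5.98 to 6.86 FPKM, and myb14 (Vv05s0049g01020), a regulator of stilbene synthesis, rose from 4.07 to 5.77 FPKM to 32.0 to 46.9 FPKM. No stilbene synthase gene of the 5 listed passed the filter, and none exceeded 0.521 FPKM in any of the 6 samples. The MYB-related gene annotated RAD (Vv03s0063g02620) fell most in the list, from 349, 174 and 224 FPKM to 0.935, 1.34 and 9.26 FPKM.

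Of 19 tested NAC and WRKY genes 14 rose and 2 fell, with a median of 1.06. On the stage 15 of the 21 listed had been picked, and of the 4 tested others 1 rose and none fell. The 3 NAC members named here rose, and members were named in part for the size of their change. NAC19 (Vv19s0014g03290) rose from 16.2, 20.5 and 26.9 FPKM to 398, 362.8 and 406 FPKM. NAC71 (Vv02s0012g01040) rose from 6.27, 7.79 and 11.5 FPKM to 189, 197 and 179.9 FPKM, and NAC22 (Vv19s0027g00230) from 2.49 to 6.38 FPKM to 79.3 to 88.5 FPKM. All 3 are members of a family of plant transcription factors with known roles in fruit ripening and stress. WRKY48 (Vv05s0077g00730) rose from 16.6, 17.9 and 20.7 FPKM to 117, 119.5 and 126 FPKM. Of the 4 tested MADS box genes 3 rose and 1 fell. SEPALLATA3 (Vv01s0010g03900), a floral and fruit identity gene, was abundant throughout, at 1426, 1248 and 1613 FPKM and then at 1653, 2165 and 2312 FPKM, and its rise of 0.51 ± 0.14 was lost after quantile normalization (adjusted p = 0.585) and in the fit of the 6 samples alone (adjusted p = 0.0892). APETALA 1 (Vv14s0083g01030) fell from 44.2 to 52.995 FPKM to 6.47 to 9.66 FPKM.

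The flavonoid and amino acid lists came from the study's pathway tables, and a part of their members had been picked on the stage, for example 2 of 15 in the flavonoid list, 2 of 14 in the shikimate list and 5 of 10 in the proline, arginine and GABA list. Of the 13 flavonoid genes tested that were not picked, 6 rose and 1 fell, with a median of 0.63. Over the whole list of 15, 8 rose, 1 fell and 6 were not called. Chalcone synthase catalyses the entry step: chalcone synthase 3 (Vv05s0136g00260) rose from 32.9, 21.1 and 29.5 FPKM to 47.2, 79.6 and 72.9 FPKM, and chalcone synthase 1 (Vv14s0068g00930) from 14.2, 13.1 and 15.2 FPKM to 24.9, 24.0 and 35.0 FPKM. Chalcone synthase 2 (Vv14s0068g00920), at 27.6, 20.7 and 27.7 FPKM and then 32.1, 25.1 and 40.9 FPKM, was not called (adjusted p = 0.219). Dihydroflavonol reductase (Vv18s0001g12800) rose from 68.9, 59.2 and 59.4 FPKM to 104, 91.2 and 94.1 FPKM. Leucoanthocyanidin dioxygenase (LDOX, Vv02s0025g04720) rose from 144, 173 and 155 FPKM to 327, 371 and 346 FPKM.

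Anthocyanidin reductase (BAN, Vv00s0361g00040), which makes epicatechin units for tannins, was the flavonoid gene that fell, from 17.99, 14.2 and 13.5 FPKM to 4.67, 1.81 and 3.003 FPKM, a difference of -2.32 ± 0.23. Flavonol synthase (Vv18s0001g03470) was variable within each stage, at 1.41, 0.885 and 4.57 FPKM and then at 4.56, 1.73 and 7.65 FPKM. Its stages overlapped and its difference of 1.08 ± 0.51 was not called (adjusted p = 0.0879), though it was without EL33 replicate 3 (adjusted p = 0.00613) and without véraison replicate 2 (adjusted p = 0.0120). In the general phenylpropanoid list, 4-coumarate-CoA ligases, which activate cinnamic acids, went in opposite directions. Vv16s0050g00390 rose from 36.0, 38.4 and 37.2 FPKM to 329, 258 and 279 FPKM, while 4-coumarate-CoA ligase 3 (Vv16s0039g02040) fell from 7.79 to 9.69 FPKM to 1.74 to 3.18 FPKM. Of the 13 members of that list tested and not picked on the stage, 6 rose and 1 fell.

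Amino acid genes, of synthesis and of breakdown, changed gene by gene. Of the tested genes not picked on the stage, 5 of 10 rose and 3 fell in the shikimate pathway, 6 of 19 rose and 5 fell for tryptophan, phenylalanine and tyrosine, 7 of 22 rose and 6 fell for lysine, methionine and threonine, and 1 of 7 rose and 5 fell for glycine. Over the whole shikimate list, 7 rose and 3 fell, and 1 fell without EL33 replicate 1. Over the whole glycine list 4 rose and 5 fell, and 3 fell without véraison replicate 2. Over the whole lysine, methionine and threonine list 9 rose and 12 fell, and 5 rose without véraison replicate 1. The first shikimate enzyme, DAHP synthase (Vv00s0391g00070), rose from 29.0, 32.2 and 26.8 FPKM to 107, 102 and 113 FPKM, by 1.87 ± 0.14. A cytosolic chorismate mutase (CM2, Vv04s0008g06570), which leads to phenylalanine and tyrosine, rose from 19.9, 17.7 and 23.04 FPKM to 61.96, 82.4 and 77.3 FPKM. A tyrosine aminotransferase gene (Vv00s0225g00230), which the study assigns to tyrosine breakdown, had one of the largest rises among the named genes. It went from 0.436, 1.22 and 0.479 FPKM to 90.2, 102 and 189 FPKM.

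S-adenosylmethionine synthetase makes the methyl donor that is also the precursor of ethylene. SAM1 (Vv05s0020g00670) rose from 1027, 950.3 and 944 FPKM to 2401, 2263 and 2611 FPKM. Proline and GABA genes rose in 6 of 9 cases, with 1 falling, and after quantile normalization 3 rose. Of the 4 tested members not picked on the stage 2 rose and none fell, with a median of 0.13. Pyrroline-5-carboxylate synthetase (P5CS, Vv13s0019g02360), which makes the proline precursor, rose from 129, 117 and 132 FPKM to 282, 233 and 236 FPKM. Glutamate decarboxylase 1 (Vv04s0079g00600), which makes GABA, rose slightly, from 413, 504 and 503 FPKM to 607, 620.4 and 658 FPKM, and was not called after quantile normalization (adjusted p = 0.609). Among 12 tested isoleucine, valine and leucine genes 3 rose and 3 fell.

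Photosynthesis genes fell. Of 32 photosystem and light-harvesting genes, which collect light and run electron transport in chloroplasts, 28 fell and 1 rose, with a median of -1.42. The study had picked 25 of them as green-stage markers, and of the 6 it had not picked 3 fell and none rose. The summed level was 8858 to 11602 FPKM at EL33 and 3724 to 4834 FPKM at véraison. Photosystem I reaction centre subunit II (Vv05s0020g03180) fell from 1645, 1276 and 1355 FPKM to 599, 471 and 509 FPKM, and light-harvesting gene LHCA2 (Vv01s0010g03620) from 414, 317 and 450.3 FPKM to 115, 92.7 and 146 FPKM. The falls were steepest for a few members: LHCII CAB-1 (Vv19s0014g00160), a light-harvesting protein of photosystem II, went from 37.99, 29.2 and 44.5 FPKM to 2.62, 1.58 and 4.37 FPKM. The oxygen-evolving PSBP gene (Vv12s0028g01080), at 590.3 to 785 FPKM and then 294 to 412 FPKM, and plastocyanin (Vv18s0001g00760), an electron carrier, at 353.5 to 423 FPKM and then 150.3 to 210.5 FPKM, fell by about 1 log2 unit.

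Not all chloroplast genes followed. PsbS (Vv18s0001g02740), which dissipates excess light energy as heat, stood at 235 to 348 FPKM and then at 194 to 267 FPKM and was not called. PsbZ (Vv12s0059g01810) was not called either, at 22.5 to 30.5 FPKM and then 28.1 to 46.9 FPKM. ELIP1 (Vv05s0020g04110), an early light-inducible protein thought to protect thylakoids, rose from 185, 152.2 and 318 FPKM to 1109.6, 920.4 and 1543 FPKM, by 2.49 ± 0.25. In the carbon fixation list, with 8 of 9 genes picked on the stage, 7 fell and 1 rose, or 2 without EL33 replicate 3. The Rubisco small subunit (Vv17s0000g03690) fell from 2551, 1719.8 and 2209 FPKM to 945, 623 and 919 FPKM, a difference of -1.39 ± 0.21.

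All 23 cell division and cytoskeleton genes fell, with a median of -1.17, and the study had picked each of them as a green-stage marker. A cell division cycle 20-like gene (Vv13s0019g01840), which helps cells leave mitosis, fell from 81.0, 104 and 67.3 FPKM to 12.5, 9.41 and 9.80 FPKM. Cyclin D3_1 (Vv00s0194g00280), which promotes entry into the cycle, was low throughout, at 2.14 to 2.50 FPKM and then at 0.480 to 1.25 FPKM. Its call was lost without EL33 replicate 2 (adjusted p = 0.0553), without véraison replicate 2 (adjusted p = 0.103) and after quantile normalization (adjusted p = 0.0794).

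**Figure D3:**
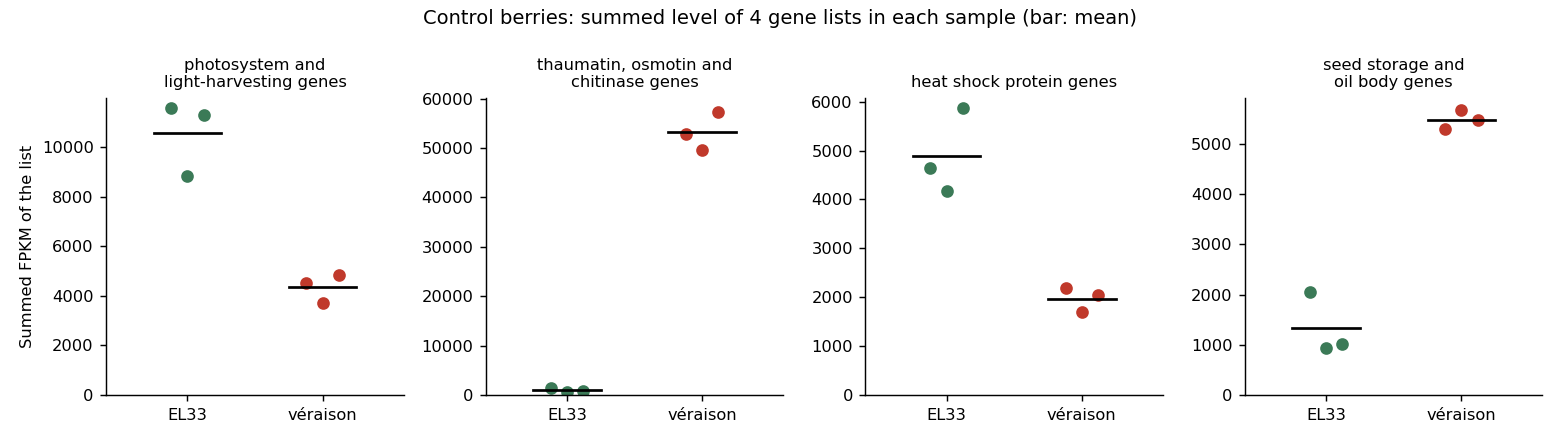
Summed FPKM of 4 gene lists in each control sample, with EL33 in green, véraison in red and a bar at the mean of 3. The photosystem and heat shock sums lie lower at véraison in every sample, the thaumatin, osmotin and chitinase sum higher, and in the seed list EL33 replicate 1 stands above the other EL33 samples.

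Heat shock protein genes also fell in these shaded berries. They code for chaperones that protect other proteins from heat damage. Of 47 tested, 34 fell and 5 rose, with a median of -1.85. Only 12 of the 50 listed members had been picked on the stage, but most others were in the study's tables of genes that responded to light exposure, so the control level had a part in their choice. Of the 35 tested members not picked on the stage 26 fell and 3 rose. The summed level was 4173 to 5869 FPKM at EL33 and 1693 to 2185 FPKM at véraison. The steepest falls were in a cluster of similar class I small heat shock genes, among which fragments may be split. Of these, Vv13s0019g02740 went from 88.9, 85.2 and 104 FPKM to 6.71, 4.78 and 8.16 FPKM, and Vv13s0019g02840 from 26.5, 17.2 and 37.97 FPKM to 1.77, 1.02 and 1.51 FPKM. In exposed berries 17 of the 47 fell and 6 rose. No member passed the test of the difference between the treatments.

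The seed list needs to be read with EL33 replicate 1 in mind. Of 23 tested members 10 rose and 3 fell, with a median of -0.70, and without EL33 replicate 3, 7 fell. The storage globulin 11S gene Vv07s0005g03410 stood at 306 FPKM in EL33 replicate 1, at 2.95 and 0.280 FPKM in the other EL33 samples and at 0.0492 to 0.338 FPKM at véraison, and was not called. Some members rose at véraison in every sample. Oleosin H-isoform (Vv14s0066g00700) stood at 34.1, 0.996 and 2.07 FPKM and then at 213, 199 and 191 FPKM, and oleosin OLE-4 (Vv02s0234g00110) at 26.6, 5.78 and 4.71 FPKM and then at 249.8, 257 and 287 FPKM. Late embryogenesis abundant protein 5 (Vv07s0005g00660), of a family known to protect dehydrating cells, rose from 247, 227 and 257 FPKM to 3395, 3713 and 3649.5 FPKM. The part that remaining seed tissue had in these values was not tested.

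Outside the lists, a few more of the named genes changed strongly. CBL-interacting protein kinase 20 (Vv10s0003g01410), a calcium-signalling kinase, rose from 0.361, 1.47 and 0.816 FPKM to 149, 171 and 155 FPKM. A laccase (Vv18s0164g00100), an enzyme class that oxidises phenolics, rose from 0.313, 0.664 and 0.466 FPKM to 87.4, 94.9 and 111 FPKM. A gene annotated hypoxia-responsive (Vv13s0067g02300) stood at 12.8, 0.444 and 0 FPKM and then at 239.8, 254.1 and 323 FPKM. Among the falls, the homeobox gene annotated Arabidopsis thaliana homeobox protein 2 (Vv15s0021g01880) went from 70.4, 112 and 80.7 FPKM to 2.50, 1.32 and 2.83 FPKM. A 2-oxoglutarate-dependent dioxygenase (Vv09s0002g05280) went from 23.4, 16.5 and 11.9 FPKM to 0.404 FPKM in one véraison sample and was listed at 0 in the others. A RADIALIS-like protein 6 gene (Vv03s0063g02670) went from 20.4, 12.7 and 29.9 FPKM to 0.936 FPKM in one véraison sample and was likewise at 0 in the others. In these named falls every EL33 sample lay above every véraison sample.

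The remaining named genes with the largest changes were of several kinds. A GASA-like gene (Vv08s0007g05860), of a gibberellin-regulated peptide family, rose from 2.27, 3.62 and 2.11 FPKM to 514, 350.4 and 349 FPKM, and a further thaumatin (Vv02s0025g04290) from 1.602, 0.782 and 2.20 FPKM to 189.8, 179.8 and 249 FPKM. Receptor and signalling genes were among the falls. A gene annotated as the brassinosteroid co-receptor BAK1 (Vv00s0294g00100) went from 21.4, 11.99 and 27.0 FPKM to 0.699 FPKM in one sample and 0 in the others, the receptor kinase LRK10 gene (Vv16s0098g00030) from 6.16 to 7.56 FPKM to at most 0.201 FPKM, and the NPH3 gene (Vv07s0104g01440), of a family known from phototropism, from 5.78 to 8.33 FPKM to at most 0.132 FPKM. A pollen allergen-type gene (Vv16s0039g01770) fell from 37.9 to 51.2 FPKM to 0.465 to 2.04 FPKM. Calcineurin B protein 3 (Vv00s0194g00050), a calcium sensor, varied widely at EL33, at 38.1, 11.3 and 147 FPKM, and was listed at 0 in all véraison samples. So were a second SAUR gene (Vv03s0038g01090), at 16.8, 9.56 and 6.73 FPKM before, and the serine carboxypeptidase SCPL17 (Vv03s0088g00150), at 9.54, 1.78 and 6.40 FPKM before. For calcineurin B protein 3 zeros were not particular to véraison. It stood at 34.5, 0 and 61.3 FPKM in control berries at EL31 and at 0 and 40.4 FPKM at EL38. In exposed berries at véraison it stood at 6.80, 21.8 and 29.9 FPKM, and its difference there, -0.02, was not called.

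The levels at the other stages of control berries show how far these changes lasted and what preceded them. They are given as group means without a test, and the ripe group had only 2 samples. Of the 4543 genes that rose, 49.9% stood higher still at EL38, 15.7% were back at or below their EL33 mean and 7.44% had dropped to 1/4 of the véraison mean or less. Of the 4662 that fell, 59.8% were lower still at EL38 and 9.93% had returned to their EL33 mean or above. At EL31, 53.3% of the genes that rose had a mean above their EL33 mean, and 10.1% had one above the véraison mean. Of those that fell, 6.18% had an EL31 mean below the véraison mean. By sample, the flavonoid list summed to 1598 to 1848 FPKM at EL31, 806 to 870 FPKM at EL33 and 1421 to 1862 FPKM at véraison. The thaumatin, osmotin and chitinase list was low at EL31, at 184 to 534 FPKM. Grip22 went from 188 FPKM at EL31 to 337 FPKM at EL33, 27071 FPKM at véraison and 15457 FPKM at EL38. NCED kept rising, from 0.257 FPKM at EL31 to 2.53, 63.7 and 101 FPKM. GIN1 kept falling, from 1502 FPKM at EL31 to 1030.2, 294 and 4.48 FPKM.

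Some genes peaked at véraison. By a rule set after their levels had been seen, 82 genes rose by at least 2 log2 units with no overlap, had a véraison mean of at least 5 FPKM, and had EL31 and EL38 means of at most 1/4 of it. Of these 82, 18 had a name, and the 12 most abundant of those included several that act on pectin and the vacuole. The pectate lyase Vv17s0000g09810 had means of 91.6, 17.8, 2379.9 and 96.4 FPKM from EL31 to EL38. A second pectate lyase (Vv05s0051g00590) had means of 47.7, 128, 1379 and 99.8 FPKM, and another (Vv01s0137g00240) of 83.4, 15.6, 337 and 2.28 FPKM. So did a pectin methylesterase inhibitor (Vv00s0323g00070), at 0.0879, 2.51, 149 and 5.70 FPKM, and alpha-expansin 10 (Vv06s0004g00070), at 1.05, 11.7, 116 and 1.599 FPKM. Aquaporin TIP1;3 followed the same course, at 183, 90.8, 1544 and 20.4 FPKM. A potassium transporter 2 gene (Vv17s0000g01930), for a carrier that takes potassium into cells, had means of 6.39, 29.1, 469.9 and 88.2 FPKM. MybA3, CIPK20 and the VVMYBA1 gene Vv02s0033g00380 were also among the 12. At EL38 these stayed above EL33, with means of 67.5, 33.8 and 80.9 FPKM against 2.97, 0.882 and 0 FPKM. None of the 12 had been picked by the study on the stage, an outcome that the rule made likely. The study's markers separated EL31 and EL33 from véraison and EL38, and the rule required a low level at EL38.

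**Figure D4:**
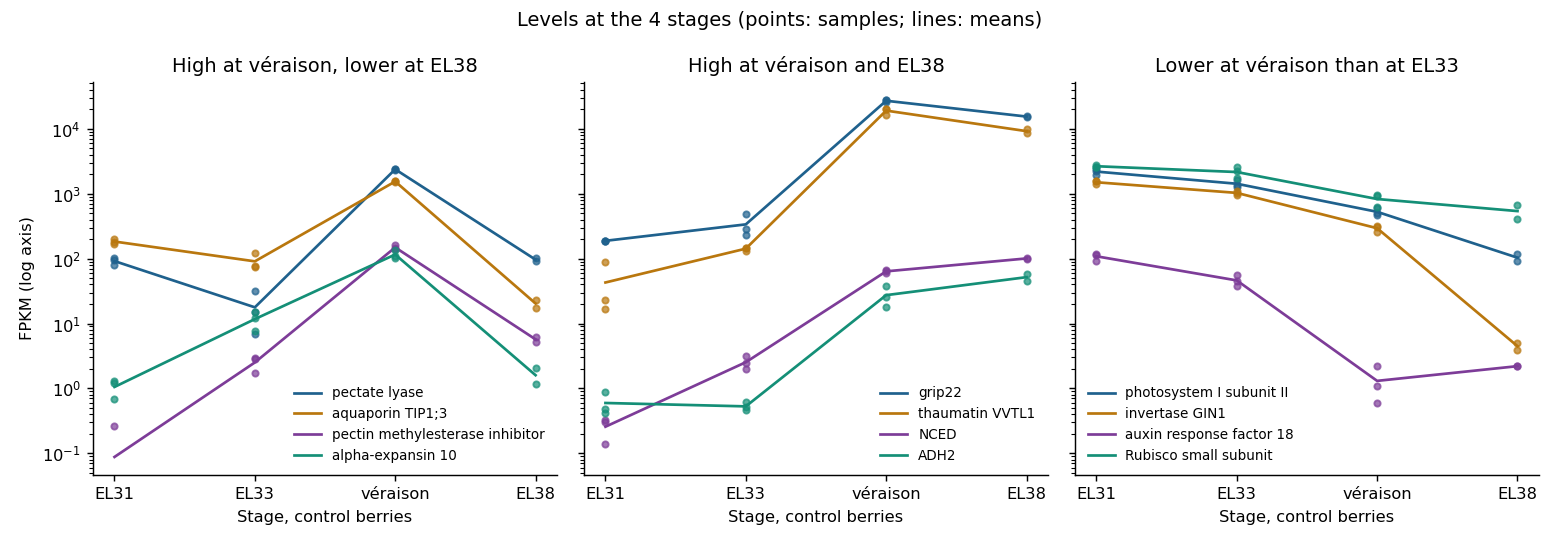
FPKM on a log axis at 4 stages in control berries, with a point for each sample (2 at EL38, 3 at the other stages) and lines through the means. The left panel holds genes high at véraison and lower at EL38, the middle panel genes that stayed high, and the right panel genes lower at véraison than at EL33. Samples at 0 FPKM are not drawn.

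Exposed berries give the same step in separate samples from the same vineyard. There, 4138 of the 18040 genes rose (22.9%) and 4067 fell (22.5%). Of the 4543 genes that rose in control berries 3578 (78.8%) rose in exposed berries and 3 fell. Of the 4662 that fell in control berries 3532 (75.8%) fell in exposed berries and 3 rose. The exposed samples had no part in the study's choice of stage markers. Of the 1914 green-stage markers tested 88.7% fell in exposed berries and none rose, and of the 1965 ripening markers 86.8% rose and none fell. Seed transcripts were unevenly spread here as well. Of the 27 listed seed genes, 21, 11 and 14 reached 1 FPKM in the exposed EL33 samples and 19, 27 and 26 in the exposed véraison samples. The median log2 difference of that list was 2.81 in exposed and -0.70 in control berries.

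The exposed libraries at EL33 were not alike. Thaumatin VVTL1 (Vv02s0025g04330) stood at 3096, 80.7 and 2301 FPKM in exposed replicates 1, 2 and 3 at EL33, against 133 to 148.2 FPKM in control berries. Grip22 (Vv06s0004g02560) stood at 3790, 281 and 2730 FPKM there, the pectate lyase Vv17s0000g09810 at 333, 12.99 and 344 FPKM, and the thaumatin, osmotin and chitinase list summed to 7895, 402 and 5004 FPKM. Exposed replicates 1 and 3 were thus high for these ripening genes and replicate 2 was not. At véraison VVTL1 had means of 18415 FPKM in exposed and 19093 FPKM in control berries. The log2 rise of VVTL1 was 4.45 in exposed against 7.06 in control berries, that of grip22 4.05 against 6.40, and that of the pectate lyase 3.90 against 7.32. The difference between treatments was not called for any of the 3 with all samples (adjusted p = 0.630, 0.420 and 0.377). Leaving out any exposed sample other than EL33 replicate 2 gave no call either (adjusted p from 0.382 to 0.898). Without exposed EL33 replicate 2 it was called for each (adjusted p = 0.00246, 0.000128 and 0.000230). That sample was the low one for these same genes, so those calls follow from its removal and are no evidence of a difference.

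The difference of the 2 changes was called for 21 genes, 0.116% of those tested, and that count rested on single samples. Leaving out an exposed sample gave 327 without EL33 replicate 2, 7 without EL33 replicate 1, 6 without EL33 replicate 3, 40 without véraison replicate 1 and 10 without véraison replicate 3. Leaving out a control sample gave 8 without EL33 replicate 1, 13 without EL33 replicate 2, 29 without EL33 replicate 3 and 12 without véraison replicate 2. It was 4 when the fit held only the 12 samples of these stages and 6 at an adjusted p of at most 0.01. In 17 of the 21 the change had the same sign in both treatments and was larger in control berries. CIR1/RVE2 (Vv04s0079g00410), a MYB-like gene of the circadian clock in Arabidopsis, rose from 18.9, 16.9 and 18.4 FPKM to 113, 89.5 and 97.95 FPKM in control berries, by 2.46 ± 0.11, against 1.31 in exposed berries (adjusted p of the difference = 0.00451). Cycling DOF factor 1 (Vv14s0108g00980), which acts in day-length timing in Arabidopsis, rose by 2.07 ± 0.11 against 1.21 (adjusted p of the difference = 0.0388). A 1,4-alpha-D-glucan maltohydrolase (Vv05s0020g01910), a beta-amylase that breaks down starch, rose from 125, 112 and 103 FPKM to 598, 533 and 543 FPKM, by 2.30 ± 0.12 against 1.32 (adjusted p of the difference = 0.0268).

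The other called genes with a name included 4-hydroxyphenylpyruvate dioxygenase (Vv12s0028g00710), an enzyme on the way to tocopherols. It rose from 51.9, 55.0 and 54.2 FPKM to 273, 248 and 245 FPKM, by 2.24 ± 0.14 against 1.06 in exposed berries. A cystatin (Vv00s0187g00120), an inhibitor of cysteine proteases, rose from 1.29, 1.997 and 1.34 FPKM to 24.9, 28.6 and 27.7 FPKM, by 4.07 ± 0.24 against 1.20. A peroxisomal S-2-hydroxy-acid oxidase (Vv10s0003g05420), an enzyme class that includes the glycolate oxidase of photorespiration, fell from 4.41, 3.83 and 3.59 FPKM to 0.543, 0.323 and 0.751 FPKM, by 2.71 log2 units against a difference of -0.27 in exposed berries that was not called. For CYP71A26 (Vv17s0000g09540), a cytochrome P450, the fall was in exposed berries, from 43.9, 26.8 and 18.5 FPKM to 0 in all 3 samples, while in control berries it stood at 10.5, 6.60 and 24.5 FPKM and then at 3.30, 5.92 and 10.98 FPKM and was not called.

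**Figure D5:**
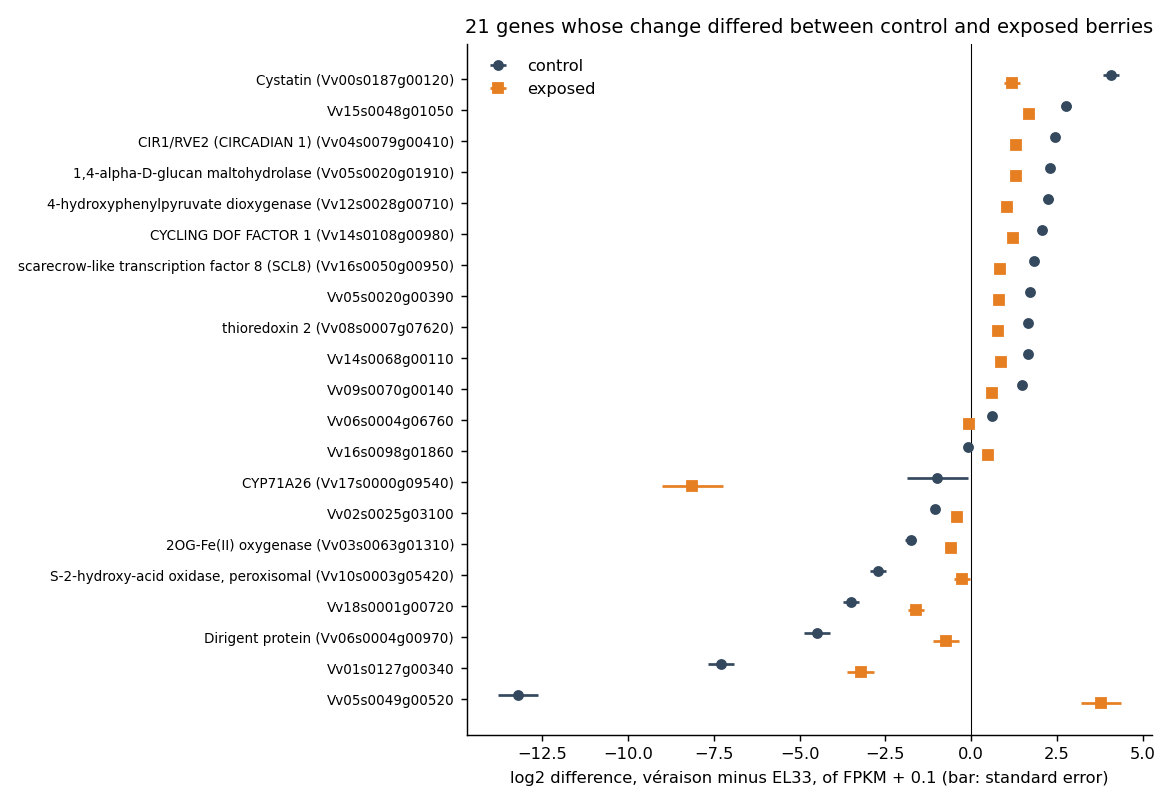
Log2 difference between véraison and EL33 with its standard error in control berries (circles) and exposed berries (squares) for the 21 genes in which the 2 differed at an adjusted p of at most 0.05. Cystatin rose by 4.07 in control and 1.20 in exposed berries, and Vv05s0049g00520 lies on opposite sides of 0. Where a group is listed at 0 (Vv05s0049g00520, Vv01s0127g00340, the dirigent protein and CYP71A26) the place of the point is set by the pseudocount.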

How the data were processed

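Poly(A) RNA of deseeded berries was sequenced (TruSeq libraries, HiSeq 1000). According to the study's methods the authors aligned reads with TopHat 2.0, allowing 2 mismatches, to the V1 annotation of the grapevine reference genome PN40024, and deposited FPKM values per gene from Cufflinks 2.0. No counts were used, so depth was estimated from the smallest steps of values under 0.06 FPKM, over 253 pairs of samples of which 4 were left out. Identifiers are those of the file and correspond to VIT_ gene models with another prefix. Names came from the study's supplementary annotation (4654 genes, 3379 with a name), and none of its fold changes or p-values was used. Of the 4654 genes 3998 had been picked on the stage. Rankings of named genes and of list members hold only within these annotated genes.

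log2(FPKM + 0.1) was fitted in limma 3.58.1 (R 4.3.3) with 8 group means over all 23 samples, empirical Bayes with a trend, and Benjamini-Hochberg adjustment over the 18040 genes tested (residual df 15). The study's own test was CuffDiff. The fit was tested on simulated data with known changes before use. A filter on the mean of either group of at least 1 FPKM was applied, with 1.00 FPKM the lowest such mean inside it and 0.9996 FPKM the highest outside. The pseudocount understates changes of low genes. Where a stage is listed at 0 the size of a fitted difference is set by the pseudocount. Replicates were panels of vines from one vineyard and season, so p-values measure the spread between panels. No 2 of the 6 samples held identical values, their correlations lying between 0.9325 and 0.972. Tables were made in Python 3.11.15.

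Named genes were the 12 largest rises and 12 largest falls with a name, called, without overlap and with a higher mean of at least 5 FPKM, up to 2 unnamed each way, a fixed set of key genes and up to 4 called members of each list, of which the text gives a selection. The members and lists were chosen with earlier results of these data known. Alternatives tried were other pseudocounts, filters and scalings, other fits, a stricter threshold and leaving out each replicate. A filter at 5 FPKM and leaving out each exposed replicate were added after the data had been seen.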

Additional observations from a re-analysis of the deposited data

Results flagged for a closer look

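The change from EL33 to véraison differed between control and exposed berries in 21 genes by the test of the difference itself, given here as the control log2 difference minus the exposed one. Among the named genes it was 2.87 for the cystatin Vv00s0187g00120, 1.15 for CIR1/RVE2 Vv04s0079g00410, 0.98 for the maltohydrolase Vv05s0020g01910, 0.87 for thioredoxin 2 Vv08s0007g07620, 1.18 for 4-hydroxyphenylpyruvate dioxygenase Vv12s0028g00710, 0.85 for cycling DOF factor 1 Vv14s0108g00980, 0.998 for the scarecrow-like factor SCL8 Vv16s0050g00950 and 7.15 for CYP71A26 Vv17s0000g09540. It was -1.17 for the 2OG-Fe(II) oxygenase gene Vv03s0063g01310, -3.78 for the dirigent protein Vv06s0004g00970 and -2.45 for the S-2-hydroxy-acid oxidase Vv10s0003g05420.

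In genes without a name it was 0.91 for Vv05s0020g00390, 0.65 for Vv06s0004g06760, 0.86 for Vv09s0070g00140, 0.77 for Vv14s0068g00110 and 1.10 for Vv15s0048g01050. It was -4.08 for Vv01s0127g00340, -0.64 for Vv02s0025g03100, -0.58 for Vv16s0098g01860 and -1.88 for Vv18s0001g00720. It was fitted at -17.01 for Vv05s0049g00520, which stood at 717, 1202 and 1005 FPKM in control berries at EL33 and was listed at 0 in the 3 véraison samples, while exposed berries had a mean of 4593 FPKM at EL33 and 44537 FPKM at véraison. That value, and those of Vv01s0127g00340, the dirigent protein and CYP71A26, rest on a group listed at 0 in all 3 samples, so their size is set by the pseudocount and is no bound.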

How the results depend on the processing

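The counts of genes that rose and fell stayed within 1.5 times their reported values under every alternative run. They were 3558 and 3552 at an adjusted p of at most 0.01, and 4064 and 3772 with the filter at 5 FPKM. Leaving out each replicate gave 3967 to 4333 that rose and 4142 to 4518 that fell. The count of genes differing between the treatments was less stable: 4 with the 12 samples of both treatments only, 6 at an adjusted p of at most 0.01, 8 to 29 when each control replicate was left out and 6 to 327 when each exposed replicate was. The highest, 327, came without exposed EL33 replicate 2. The genes that rose and fell in exposed berries then numbered 3413 to 4214 and 3479 to 4063. The last digits of the sample labels recurred at both stages, and the labels do not say whether they mark the same panels. Same-numbered replicates did not deviate together (correlations 0.05, -0.09 and 0.04). With so few samples this cannot exclude a pairing, and the main fit took the samples as unpaired. With a replicate block 4985 genes rose, 5079 fell and 54 differed between the treatments. Of 197 named genes called, 187 kept direction and call throughout, 10 lost the call under at least 1 alternative and 0 reversed. Of the list medians, that of the isoleucine, valine and leucine genes changed sign under quantile normalization, from 0.16 to -0.07. Low depth at véraison limits what can be said of genes near 0.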

Other observations

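A few genes without a name were among the largest changes, with one stage listed at 0 throughout. Vv00s0199g00050 reached 9752, 8829.7 and 7340.4 FPKM at véraison and Vv17s0000g09800 reached 4649.8, 4426 and 11640.3 FPKM, both from 0 at EL33. Zeros and high values of Vv00s0199g00050 also stood side by side within other groups. It was at 0, 8136 and 0 FPKM in control berries at EL31. In exposed berries it was at 0 in every EL33 sample and at 12287, 7240 and 0 FPKM at véraison. Vv11s0016g05290 went from 1513, 3852 and 1103 FPKM, and Vv19s0090g01060 from 1224, 770.4 and 2205 FPKM, to 0. The calls of the last pair were lost when single replicates were left out, in every case for Vv11s0016g05290 (adjusted p from 0.0676 to 0.0848) and in all but the fit without EL33 replicate 2 for Vv19s0090g01060 (adjusted p from 0.0513 to 0.0593). Vv14s0060g01730 was listed at 22800000 FPKM in EL33 replicate 1 and at 0 in the other 5 samples.

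The samples of a stage were not interchangeable among strongly changed genes. Of 887 genes that fell by at least 2 log2 units, EL33 replicate 1 was the highest EL33 sample in 511. Of 799 that rose by at least 2 log2 units, véraison replicate 1 was the lowest véraison sample in 384.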
